A study of Mus musculus with 34 samples.

Results

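RNA sequencing of mouse small cell lung cancer flank tumors treated with an antibody against PD-1 was compared with that of tumors given vehicle. Small cell lung cancer is a fast-growing neuroendocrine lung tumor, and the tumors here grew from a single mouse line, RP-48OVA-LLO190, in immunocompetent mice. The comparison holds 10 of the 34 samples of the series, chosen by their labels: 5 tumors treated with anti-PD1 alone and 5 given vehicle, each with a treatment time of 16 d per the labels. Neither group received bomedemstat (BOM), the drug of the other arms, which blocks LSD1, an enzyme that removes methyl groups from histones. Another 4 flank tumors were treated with BOM plus anti-PD1 and 4 with BOM alone, and they entered the fits only to share the estimate of the spread and to place the 10 tumors. All groups carried the same line, so each result concerns 1 line. The labels do not say whether each tumor came from a separate mouse, so p-values measure the spread between these tumors. RNA came from whole tumor tissue, in which fewer cells of a type and less RNA per cell cannot be told apart.

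PD-1, the product of Pdcd1, is an inhibitory receptor of activated T cells. Its ligand PD-L1, the product of Cd274, is carried by tumor and myeloid cells, and an antibody that blocks the receptor releases T cells from this brake. T cells that are engaged release interferon gamma, which raises chemokines for T cells, antigen presentation on MHC molecules and Cd274 itself. Small cell lung cancer is known for low MHC class I and few T cells.

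The labelled tumor type matched its defining markers. The neuroendocrine factor Insm1 lay between 474 and 572 CPM (counts scaled to the normalized library total) in anti-PD1 tumors and between 496 and 584 CPM in vehicle tumors. Chga, which codes for chromogranin A of secretory granules, lay between 442 and 511 CPM in anti-PD1 tumors and between 381 and 589 CPM in vehicle tumors. T cells were scarce by their RNA: Cd3e, a chain of the T cell receptor complex, was at most 1.77 CPM in any anti-PD1 tumor and at most 2.42 CPM in any vehicle tumor.

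Some vehicle libraries stood apart from the others of their group. The anti-PD1 libraries held 5.68 to 7.23 M counts and vehicle libraries 3, 4 and 5 held 5.64 to 7.27 M, while vehicle 1 held 82.2 M and vehicle 2 held 13.2 M. On the first principal component, with 43.0% of the variance, the anti-PD1 tumors lay between -54.1 and -24.0, the 8 tumors that received BOM between 27.8 and 45.01, and vehicle 3, 4 and 5 between -42.6 and -23.3. Vehicle 1 lay at 30.5, among the BOM tumors, and vehicle 2 at 6.15, between both sides. Vehicle 1 correlated with the BOM tumors by a Spearman rho of 0.982 to 0.991 across genes and with vehicle 3, 4 and 5 by 0.969 to 0.974. In vehicle 2 the highest such value was 0.992, with a tumor treated with BOM plus anti-PD1. These values describe libraries across genes, and the reason that vehicle 1 and 2 lie there was not tested. The main differences are therefore given both with all tumors and without vehicle 1 and 2.

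**Figure D1:**
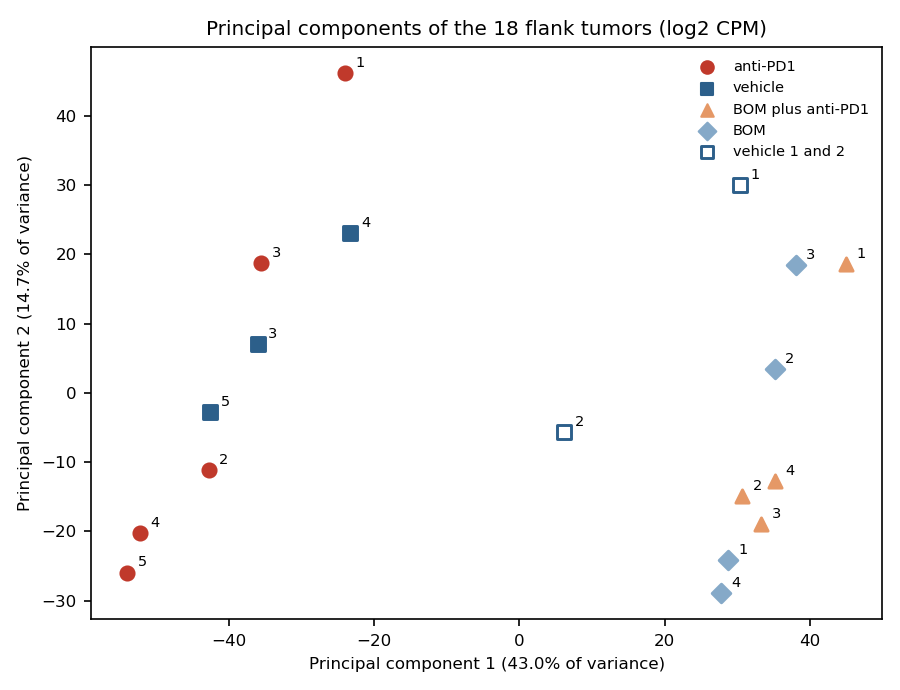
First and second principal components of log2 CPM in the 18 flank tumors, with each point a tumor and its replicate number beside it. Anti-PD1 tumors (circles) and vehicle 3, 4 and 5 (filled squares) lie on the left, at or below -23.3 on the first component, and vehicle 1 and 2 (open squares) lie at 30.5 and 6.15, toward the tumors that received BOM.

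The same split was seen in genes that BOM raises in this line. In cultures of RP-48OVA-LLO190, 202 of 14507 genes (1.39%) were called at least 4-fold higher after 10 d of BOM (n = 2) than in DMSO (n = 3), and 184 of them were tested in the tumors. Their median level was 2.29 to 3.45 log2 CPM in the anti-PD1 tumors and 3.90 to 4.23 log2 CPM in the tumors that received BOM. In the vehicle group it was 4.20 in vehicle 1, 3.67 in vehicle 2 and 2.71 to 3.19 in the other vehicle tumors. Notch1, a receptor that opposes neuroendocrine fate in this cancer, had 4.67, 4.55, 5.89, 4.38 and 1.83 CPM in anti-PD1 tumors 1 to 5, against 52.5, 32.2, 3.01, 5.21 and 3.57 CPM in vehicle tumors 1 to 5. Only vehicle 1 and 2 were high, and in the tumors with BOM alone Notch1 averaged 89.8 CPM. Its difference was -2.35 ± 0.64 on the log2 scale with all tumors (SE, unadjusted p = 0.0017) and 0.08 ± 0.28 without vehicle 1 and 2 (unadjusted p = 0.79).

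Vehicle 4 differed in another way. It showed 23727 genes with at least 1 count, against 17887 to 18212 in the anti-PD1 tumors and 17855 to 18196 in vehicle 3 and 5, which had a similar depth. In 2705 genes vehicle 4 was the only one of the 10 tumors with a count. The predicted gene Gm10800 was at 781 CPM in vehicle 4 and at 0.56 to 1.93 CPM in the anti-PD1 tumors. Genes of fat cells were also high in vehicle 4, as described below.

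No gene passed edgeR's test between anti-PD1 and vehicle tumors, with or without vehicle 1 and 2. With all tumors, this quasi-likelihood test called 0 of 14332 genes (0%) at an adjusted p under 0.05, and the lowest adjusted p was 0.20. At an unadjusted p under 0.05 there were 568 genes higher with anti-PD1 (3.96%) and 843 lower (5.88%). Once vehicle 1 and 2 were left out, the test called 0 of 14450 genes (0%), with 191 higher (1.32%) and 234 lower (1.62%) at an unadjusted p under 0.05. Of the 1411 genes at that level with all tumors, 274 were also there without the pair. Of 267 genes that were lower with anti-PD1 at that level by at least 2-fold, 72 were still at least 2-fold lower without the pair. DESeq2, a different count test, called 86 genes with all tumors, 24 higher and 62 lower, and 1 gene without the pair, while limma voom with sample weights called 0 in both.

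The precision was enough to bound most genes. The median half-width of the 95% interval was 0.24 on the log2 scale with all tumors and 0.28 without vehicle 1 and 2. Scarce transcripts of immune cells were far less well bounded, as given beside each gene below.

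The genes of lowest p that were higher with anti-PD1 had small and even differences, and none passed edgeR's test. Leading genes here and below were picked by low p, so a lack of overlap between groups is no further support. With all tumors DESeq2 called the 8 genes of lowest p, with adjusted p-values of 0.0012 for Anp32b to 0.012 for Thoc3, and none of them without vehicle 1 and 2. Tacc2 (chr7:130577438-130764785, plus strand, GRCm38), which codes for a protein of the mitotic spindle, had 116, 118, 126, 129 and 120 CPM in anti-PD1 tumors 1 to 5, against 100.1, 106, 96.8, 102 and 109 CPM in vehicle tumors 1 to 5. The groups did not overlap, and the log2 difference was 0.25 ± 0.05 with all tumors (adjusted p = 0.20 in edgeR) and 0.24 ± 0.07 without vehicle 1 and 2 (adjusted p = 1). Gtf2a1, a subunit of the general transcription factor TFIIA, had 86.8, 75.9, 76.0, 86.7 and 89.7 CPM with anti-PD1, against 64.8, 73.2, 70.1, 69.3 and 68.4 CPM with vehicle. All anti-PD1 tumors were again above all vehicle tumors, by 0.27 ± 0.06 with all tumors and 0.25 ± 0.07 without the pair. Caap1, a regulator of apoptosis, had 48.3, 42.3, 37.6, 44.5 and 40.6 CPM with anti-PD1 and 34.4, 32.0, 33.8, 29.1 and 29.9 CPM with vehicle. Its difference was 0.42 ± 0.09 with all tumors and 0.45 ± 0.11 without the pair.

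Anp32b and Anp32e, which code for acidic nuclear proteins that bind histones, showed log2 differences of 0.28 ± 0.06 and 0.24 ± 0.06 with all tumors and of 0.24 ± 0.07 and 0.17 ± 0.06 without vehicle 1 and 2. Anp32b was at 294 CPM in anti-PD1 2, close to the 274 to 302 CPM of the vehicle tumors, and at 353 to 369 CPM in the other anti-PD1 tumors. Without anti-PD1 2 but with all vehicle tumors, Anp32b and Cmas, an enzyme of sialic acid metabolism, passed the test. Their log2 differences were 0.34 (adjusted p = 0.015 in edgeR) and 0.33 (adjusted p = 0.049). As anti-PD1 2 was the lowest of its group for Anp32b, leaving it out favored that pass, which is no further support. Without vehicle 1 and 2 as well, Anp32b differed by 0.30 (adjusted p = 0.57 in edgeR) and did not pass. Thoc3, part of the complex that readies mRNA for export, and Tiprl, a regulator of protein phosphatases, differed by 0.26 ± 0.06 and 0.29 ± 0.07 with all tumors and by 0.22 ± 0.07 and 0.28 ± 0.08 without the pair. In the fit without vehicle 1 and 2, the leading genes also included the RNA-binding protein gene Hnrnpd at 0.23 ± 0.07, Arhgap11a at 0.31 ± 0.09, Dus4l at 0.47 ± 0.13 and Spata13 at 0.50 ± 0.13. With all tumors Hnrnpd was at 0.22 ± 0.05, Arhgap11a at 0.26 ± 0.08 and Dus4l at 0.31 ± 0.12. Spata13 had the opposite sign with all tumors, -0.05 ± 0.21. Its level was 22.7 to 31.4 CPM in the anti-PD1 tumors, 40.8 and 41.8 CPM in vehicle 1 and 2, and 17.0 to 21.9 CPM in vehicle 3, 4 and 5.

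The genes of lowest p that were lower with anti-PD1 were mostly those that were high in vehicle 1 and 2, and none passed edgeR's test. DESeq2 called all 8 of them with all tumors, with adjusted p-values of 6.8e-05 for Adcy5 to 0.017 for March3. Adcy5 (chr16:35154877-35305738, plus strand), an adenylyl cyclase that makes the messenger cAMP, had 1.93, 0.70, 1.25, 1.02 and 1.69 CPM in anti-PD1 tumors 1 to 5, against 47.9, 26.9, 1.77, 6.29 and 3.30 CPM in vehicle tumors 1 to 5. Vehicle 3 lay within the range of the anti-PD1 tumors and vehicle 1 and 2 far above it. The mean was 79.9 CPM in the tumors with BOM alone. The log2 difference was -3.83 ± 0.75 with all tumors (adjusted p = 0.20) and -1.52 ± 0.34 without the pair (adjusted p = 1 in edgeR), and Adcy5 was the gene that DESeq2 called without the pair. Kcnk5, a potassium channel, had 0.48 to 1.61 CPM in anti-PD1 tumors, against 12.9 and 12.4 CPM in vehicle 1 and 2 and 1.99 to 2.88 CPM in vehicle 3, 4 and 5. The groups did not overlap, and its difference was -2.45 ± 0.52 with all tumors and -0.92 ± 0.33 without the pair.

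Smaller and more even was the difference in Aldh3a2, an enzyme that oxidizes fatty aldehydes. It had 31.7, 31.1, 29.97, 28.5 and 29.7 CPM with anti-PD1 and 53.6, 50.1, 37.9, 37.6 and 35.6 CPM with vehicle, so that each anti-PD1 tumor lay below each vehicle tumor. The log2 difference was -0.52 ± 0.12 with all tumors (adjusted p = 0.20 in edgeR) and -0.30 ± 0.10 without vehicle 1 and 2 (adjusted p = 1). March3, a ubiquitin ligase, differed by -1.01 ± 0.22 with all tumors and -0.64 ± 0.22 without the pair. The carboxylesterase gene Ces1d, the guidance factor genes Draxin and Rgma and the muscle cytoskeleton gene Pdlim3 differed by -2.54, -1.62, -2.46 and -2.55 with all tumors. Without the pair the values of these last genes were -1.24, -0.50, -0.50 and -0.82.

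With the pair left out, Adcy5 was again among the lower leaders, at -1.52. Most other lower leaders had small differences: Lgalsl at -0.36 ± 0.10, Dalrd3 at -0.31 ± 0.09, Parp8 at -0.30 ± 0.09, Taf1c at -0.41 ± 0.12, Stk40 at -0.29 ± 0.08 and Ttll3 at -0.47 ± 0.14. With all tumors the genes from Lgalsl to Ttll3 were at -0.34 ± 0.08, -0.23 ± 0.08, -0.21 ± 0.08, -0.28 ± 0.11, -0.20 ± 0.08 and -0.30 ± 0.13, in the same order. Cbx8, a subunit of a Polycomb repressive complex, also came up, at -0.77 ± 0.34 with all tumors and -1.14 ± 0.33 without the pair. It was at 16.8 to 19.1 CPM in the anti-PD1 tumors, at 79.6 CPM in vehicle 4 and at 17.4 to 20.6 CPM in the other vehicle tumors, so its difference rested on vehicle 4.

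**Figure D2:**
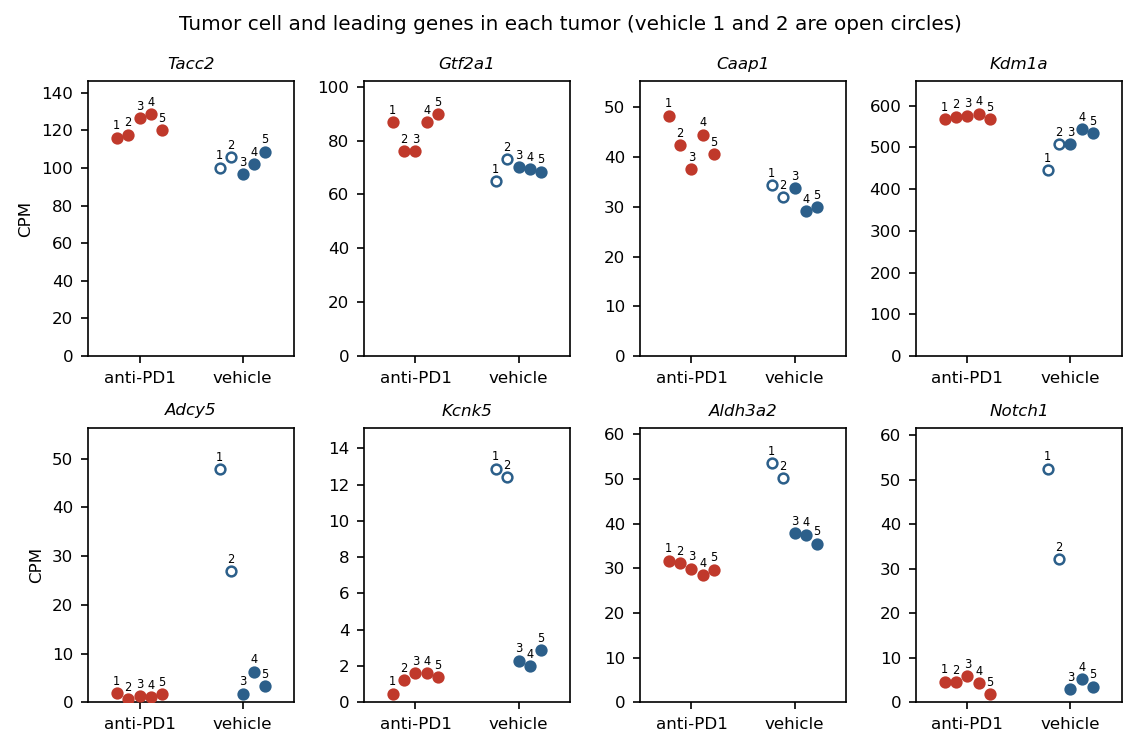
Normalized CPM of Tacc2, Gtf2a1, Caap1, Kdm1a, Adcy5, Kcnk5, Aldh3a2 and Notch1 in each anti-PD1 tumor (red) and vehicle tumor (blue), with replicate numbers beside the points and axes from 0. Tacc2, Gtf2a1, Caap1 and Kdm1a are slightly higher in all anti-PD1 tumors, while Adcy5, Kcnk5 and Notch1 are high in vehicle 1 and 2 (open circles), as with Notch1 at 52.5 and 32.2 CPM.

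The target of the antibody and its ligand did not pass the test, and their values overlapped between groups. Pdcd1 (chr1:94038305-94052553, minus strand) was measured with few counts: 13, 8, 0, 1 and 4 in anti-PD1 tumors 1 to 5, against 301, 21, 1, 8 and 1 in vehicle tumors 1 to 5. In CPM that was 2.09, 1.4, 0, 0.15 and 0.56 with anti-PD1 and 3.68, 1.60, 0.18, 1.23 and 0.14 with vehicle. High and low tumors were found in both groups, and the log2 difference was -0.94 ± 0.72 with all tumors and 0.67 ± 0.86 without vehicle 1 and 2. Cd274 (chr19:29367455-29388095, plus strand) had 10.8, 6.998, 7.14, 3.65 and 5.64 CPM with anti-PD1, against 18.5, 10.1, 6.55, 6.90 and 5.08 CPM with vehicle. Anti-PD1 1 and vehicle 1 were the highest of their groups, and the difference was -0.52 ± 0.42 with all tumors and 0.13 ± 0.44 without the pair. The 95% interval without the pair ran from 0.57-fold to 2.10-fold.

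Other checkpoint receptors gave a similar picture. Of 9 tested genes of checkpoint receptors and T cell exhaustion, 1 was higher and 0 were lower at an unadjusted p under 0.05. These counts are with all tumors, where 3.96% of all genes were higher and 5.88% lower at that level. The median log2 difference of the list was -0.63 with all tumors and 0.04 without vehicle 1 and 2. The higher one was Tox, a nuclear factor known from exhausted T cells, at 0.39 ± 0.12 with all tumors (unadjusted p = 0.0047) and 0.19 ± 0.10 without the pair (unadjusted p = 0.078). It had 84.7 to 97.1 CPM in anti-PD1 tumors and 49.8 to 86.5 CPM in vehicle tumors, and the groups overlapped. Which cells carried the Tox RNA was not tested, so it cannot be read as a measure of exhausted T cells. Among 11 ligands of checkpoint receptors 0 passed an unadjusted p of 0.05 in either direction, and the median was -0.52 with all tumors and 0.12 without the pair.

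RNA of T cells was low in every tumor and uneven within both groups. Cd8a, the co-receptor of cytotoxic T cells, had 12, 5, 3, 2 and 10 counts in anti-PD1 tumors 1 to 5 and 402, 58, 4, 6 and 1 counts in vehicle tumors 1 to 5. The CPM values were 1.93, 0.87, 0.54, 0.29 and 1.41 with anti-PD1, against 4.91, 4.41, 0.71, 0.92 and 0.14 with vehicle. Vehicle 1 and 2 lay above all anti-PD1 tumors, and vehicle 3, 4 and 5 overlapped with them. Its log2 difference was -1.28 ± 0.72 with all tumors (adjusted p = 0.57 in edgeR) and 0.79 ± 0.80 without the pair (adjusted p = 1), with an interval from 0.54-fold to 5.55-fold in the second fit. Cd4, the co-receptor of helper T cells that macrophages can also express, had 4.19, 3.15, 1.07, 0.58 and 1.27 CPM with anti-PD1 and 7.02, 4.79, 2.12, 3.22 and 1.79 CPM with vehicle. It differed by -0.97 ± 0.49 with all tumors and -0.23 ± 0.54 without the pair.

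Over the 15 genes of the T cell receptor complex and its signalling that were tested, 0 were higher and 1 was lower at an unadjusted p under 0.05, and the median log2 difference was -0.63, beside -0.0039 over all genes tested. With all tumors 3.96% of all genes were higher and 5.88% lower at that level. Without vehicle 1 and 2 the median of the list was -0.0042, beside 0.0011 over all genes. In that fit 1 gene of the list was higher at that level, beside 1.32% of all genes. This gene was Cd8b1, the partner chain of Cd8a. It was at 1.13, 0.87, 0.36, 0.15 and 0.70 CPM in the anti-PD1 tumors and at 1.65, 1.90, 0, 0.15 and 0 CPM in the vehicle tumors, and it was singled out after its values were seen. Leaving out 1 further tumor moved the median of the list from -0.26 (without anti-PD1 1) to 0.65 (without vehicle 4). The summed level of the 15 genes was 11.2 to 35.9 CPM in the anti-PD1 tumors and 15.1 to 50.2 CPM in the vehicle tumors. Foxp3, the factor of regulatory T cells, was too low to test, with 2 to 6 counts in anti-PD1 tumors, 62 counts in vehicle 1 and 2 to 12 counts in the other vehicle tumors. These raw counts are not comparable, as the library of vehicle 1 held 82.2 M counts and the anti-PD1 libraries 5.68 to 7.23 M.

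Cytotoxic genes were low and uneven as well. Gzmb, a protease that T cells and natural killer cells release into their targets, had 3.54, 1.05, 0.18, 0.73 and 0.85 CPM with anti-PD1, against 6.05, 2.21, 0.35, 0.77 and 1.51 CPM with vehicle. Perforin, the product of Prf1, opens the way for such proteases, and its RNA was at 1.45, 0.70, 0, 0.44 and 0.28 CPM with anti-PD1 and at 2.48, 1.67, 0.35, 0.77 and 0.14 CPM with vehicle. Both were highest in replicate 1 of either group and overlapped between groups. Gzmb differed by -0.95 ± 0.65 with all tumors and 0.47 ± 0.71 without vehicle 1 and 2, and Prf1 by -1.14 ± 0.70 and 0.44 ± 0.87. Ifng, the gene of interferon gamma, had at most 1 count in any anti-PD1 tumor, while vehicle 1 had 34 counts and the other vehicle tumors 0 to 3, so it was not tested. At these depths 3 counts correspond to 0.415 to 0.528 CPM in an anti-PD1 library and to 0.0365 CPM in vehicle 1. Of 8 cytotoxic genes tested, 0 were at an unadjusted p under 0.05, and their median was -0.77 with all tumors and 0.45 without the pair, between -0.28 (without anti-PD1 1) and 0.98 (without vehicle 4) when 1 more tumor was left out.

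**Figure D3:**
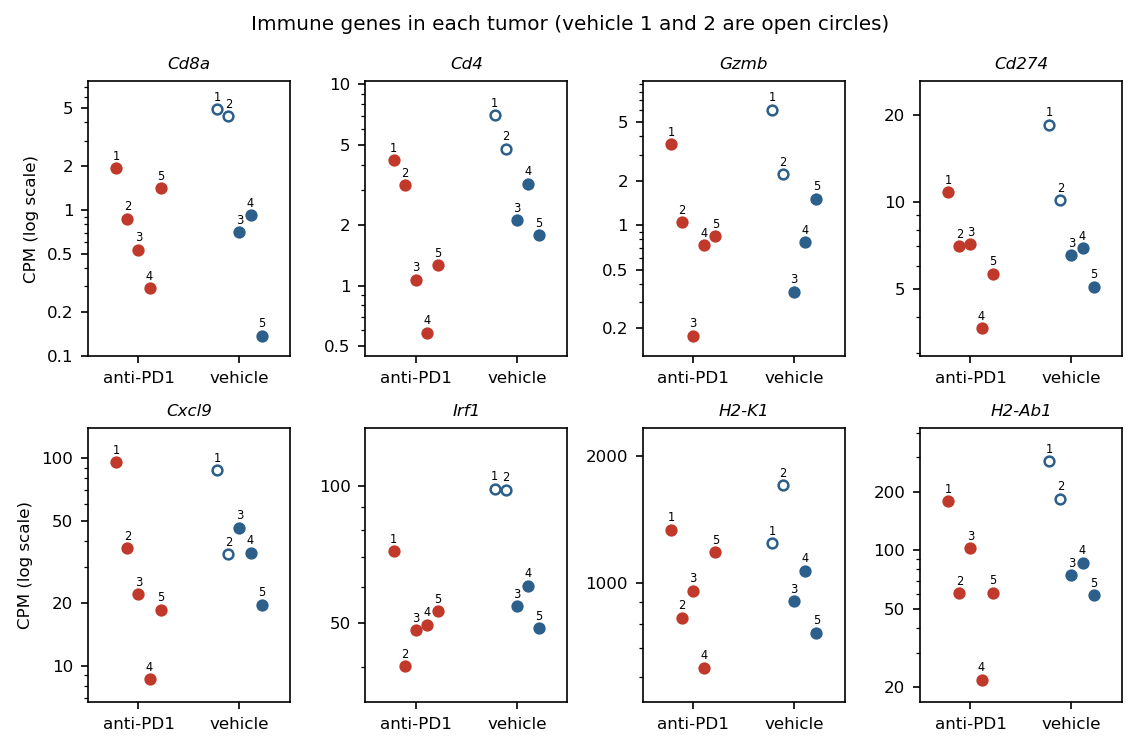
Normalized CPM on log axes of Cd8a, Cd4, Gzmb, Cd274, Cxcl9, Irf1, H2-K1 and H2-Ab1 in each anti-PD1 tumor (red) and vehicle tumor (blue), with replicate numbers. The groups overlap in each gene, anti-PD1 1 is the highest anti-PD1 tumor in all of them, and the highest vehicle tumor is vehicle 1 or 2 (open circles) in each of them.

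Genes that interferon gamma induces varied from tumor to tumor more than between groups. Their promoters carry short sites that are well known, so 3 windows are shown, for Irf1, Gbp5 and Cxcl10. The windows are from RefSeq on GRCm38.p6 and run from 250 bases before to 50 bases after the annotated start. Capitals mark matches to TTCNNNGAA, the interferon gamma activated site known as GAS, and to GAAANNGAA on either strand, the core of the site of interferon-stimulated genes known as ISRE.
Irf1 promoter, chr11:53769764-53770063, plus strand: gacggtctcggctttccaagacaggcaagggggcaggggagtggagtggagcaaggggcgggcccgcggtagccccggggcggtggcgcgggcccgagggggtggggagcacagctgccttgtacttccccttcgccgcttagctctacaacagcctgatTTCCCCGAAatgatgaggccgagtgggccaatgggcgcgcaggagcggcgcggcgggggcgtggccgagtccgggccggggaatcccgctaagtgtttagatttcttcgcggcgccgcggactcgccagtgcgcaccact
Gbp5 promoter, chr3:142496684-142496983, plus strand: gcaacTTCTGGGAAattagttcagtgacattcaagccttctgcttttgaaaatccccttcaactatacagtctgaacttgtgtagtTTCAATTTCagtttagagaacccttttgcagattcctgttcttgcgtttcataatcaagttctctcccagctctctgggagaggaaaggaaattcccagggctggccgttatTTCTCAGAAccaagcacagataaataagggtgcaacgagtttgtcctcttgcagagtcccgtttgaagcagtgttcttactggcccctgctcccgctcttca
Cxcl10 promoter, chr5:92348840-92349139, minus strand: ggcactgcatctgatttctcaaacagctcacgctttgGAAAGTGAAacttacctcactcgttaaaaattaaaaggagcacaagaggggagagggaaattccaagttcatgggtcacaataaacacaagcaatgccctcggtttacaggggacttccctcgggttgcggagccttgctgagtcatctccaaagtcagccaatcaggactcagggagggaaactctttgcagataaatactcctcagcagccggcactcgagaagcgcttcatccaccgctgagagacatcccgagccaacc
Irf1 has 1 match to the first motif, Gbp5 has 2 to the first and 1 to the second, and Cxcl10 has 1 to the second. Among all 32851 promoter windows, 8.30% held the first motif, 8.56% the second and 15.8% at least 1 of both. Of the 20 interferon gamma response genes tested, 12 had a window, and 12 of these held at least 1 of both motifs. The same held for 12 of 18 type I interferon response genes and 6 of 19 MHC class I genes with a window. A gene counted if any of its windows matched, while the shares among all windows count single windows. The gene shares and window shares are therefore not directly comparable. A match describes letters in a window and is not a measured site.

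Irf1, a transcription factor that interferon gamma induces, had 71.9, 40.2, 48.2, 49.6 and 53.1 CPM in anti-PD1 tumors 1 to 5, against 98.7, 98.2, 54.5, 60.4 and 48.8 CPM in vehicle tumors 1 to 5. Vehicle 1 and 2 were above all others, and Irf1 differed by -0.47 ± 0.21 with all tumors (unadjusted p = 0.037, adjusted p = 0.48 in edgeR) and by -0.06 ± 0.18 without vehicle 1 and 2. Gbp5, a guanylate-binding protein of the defence against microbes, had 11.3, 3.32, 3.39, 1.17 and 2.25 CPM with anti-PD1 and 16.0, 6.77, 4.78, 4.91 and 2.88 CPM with vehicle. It differed by -0.80 ± 0.65 with all tumors and 0.02 ± 0.74 without the pair.

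Of the 20 tested genes of the interferon gamma response, 0 were higher and 4 were lower at an unadjusted p under 0.05 with all tumors, where 5.88% of all genes were lower. The 2 of lowest p were Tgtp1 at -1.89 ± 0.71 and Gbp10 at -2.97 ± 1.14 (-0.50 ± 0.79 and -1.46 ± 1.43 without vehicle 1 and 2), both members of families with near-identical copies, so that their counts are uncertain. The median of the list was -0.92 with all tumors and -0.08 without vehicle 1 and 2, where 0 of 20 were at that level. Within the anti-PD1 group, tumor 1 was the highest for 20 of 20 genes and tumor 4 the lowest for 14. Within the vehicle group, tumor 1 was the highest for 17 and tumor 5 the lowest for 19. The summed level of all 21 listed genes was 552, 185, 189, 124 and 197 CPM with anti-PD1 and 813, 637, 299.9, 307 and 166 CPM with vehicle. Leaving out anti-PD1 1 as well as vehicle 1 and 2 gave a median of -0.59, and leaving out vehicle 4 in its place gave 0.12.

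Genes of the type I interferon response had negative median differences in both fits, without passing the test. With all tumors 23 of 23 had a negative log2 difference, 2 of them at an unadjusted p under 0.05, with a median of -0.58, while 7014 of all 14332 genes were higher and 5.88% were lower at that level. Without vehicle 1 and 2, all but 2 of 23 were negative, 0 at that level, with a median of -0.35, while 7275 of all 14450 genes were higher. That median lay between -0.88 (without anti-PD1 1) and -0.20 (without anti-PD1 5) when 1 more tumor was left out. The count of 0 depended on the setting. Without anti-PD1 1 as well, 9 of 23 were lower at that level, beside 284 of all 14402 genes. With a replicate block 5 were lower, beside 297 of all 14450 genes. With limma voom 4 were lower, beside 318 of all 14450 genes, and in the other settings 0 or 1. The gene of lowest p was Usp18, which removes the modifier ISG15 from proteins. It had 3.71, 1.75, 1.78, 1.02 and 1.27 CPM with anti-PD1, against 7.24, 10.3, 2.65, 2.76 and 2.61 CPM with vehicle, and only anti-PD1 1 overlapped with the vehicle tumors. The difference was -1.50 ± 0.45 with all tumors (adjusted p = 0.28 in edgeR) and -0.51 ± 0.41 without the pair (adjusted p = 1).

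Chemokines that draw T cells through CXCR3 did not differ beyond the spread between tumors. Cxcl9 had 95.2, 36.7, 22.1, 8.61 and 18.6 CPM with anti-PD1, against 87.3, 34.5, 46.2, 35.0 and 19.6 CPM with vehicle, and Cxcl10 had 5.80, 1.05, 1.25, 1.61 and 2.40 CPM with anti-PD1 and 9.09, 4.72, 2.65, 4.45 and 2.20 CPM with vehicle. The groups overlapped, with anti-PD1 1 and vehicle 1 at the top. Cxcl9 differed by -0.34 ± 0.61 with all tumors and 0.10 ± 0.71 without the pair, and Cxcl10 by -0.99 ± 0.57 and -0.36 ± 0.65. Of 9 chemokine and receptor genes tested, 2 were lower at an unadjusted p under 0.05 with all tumors and 0 without the pair. At that level 5.88% of all genes were lower with all tumors and 1.62% without the pair. Cxcl16 was at -0.64 ± 0.29 and Ccl3 at -0.97 ± 0.45 with all tumors. Without the pair they were at -0.30 ± 0.31 and -0.21 ± 0.50. The median of the list was -0.60 with all tumors and -0.21 without the pair. Leaving out 1 more tumor moved the second median from -0.56 (without anti-PD1 1) to 0.03 (without anti-PD1 5).

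Antigen presentation on MHC class I, which shows peptides to cytotoxic T cells, was expressed in every tumor. The heavy chain gene H2-K1 had 1337, 827, 959, 629.8 and 1181 CPM with anti-PD1, against 1244, 1703, 904, 1069 and 762 CPM with vehicle. B2m, its light chain, had 1046, 722, 737, 468 and 762 CPM with anti-PD1 and 954, 1019, 776, 809 and 627 CPM with vehicle. Tap1, which carries peptides to these molecules, had 131, 69.1, 98.1, 44.2 and 116 CPM with anti-PD1 and 127, 180, 89.4, 97.7 and 57.1 CPM with vehicle. In all of them anti-PD1 4 was the lowest anti-PD1 tumor and vehicle 5 the lowest vehicle tumor. The log2 differences with all tumors were -0.20 ± 0.23 for H2-K1, -0.16 ± 0.20 for B2m and -0.28 ± 0.34 for Tap1, and without vehicle 1 and 2 they were 0.10 ± 0.23, 0.01 ± 0.22 and 0.17 ± 0.36. For B2m the interval without the pair ran from 0.73-fold to 1.38-fold. Reads of H2 genes can be shared among near-identical copies, so their counts are uncertain. Of 21 class I pathway genes, 0 were higher and 1 was lower at an unadjusted p under 0.05 in either fit, the chaperone gene Calr at -0.19 ± 0.08 with all tumors and -0.22 ± 0.09 without the pair. Over all genes, 5.88% were lower at that level with all tumors and 1.62% without the pair. The class I genes had a median of -0.24 with all tumors and 0.13 without the pair.

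MHC class II genes, which professional antigen-presenting cells use, spread more widely. Cd74, the chaperone of class II molecules, had 383, 143, 196, 43.3 and 112 CPM with anti-PD1, against 626, 389, 171, 185 and 126 CPM with vehicle. H2-Ab1, a class II chain, had 179, 60.4, 102, 21.9 and 60.9 CPM with anti-PD1 and 286, 184, 74.8, 86.5 and 58.9 CPM with vehicle. Anti-PD1 1 was the highest and anti-PD1 4 the lowest of the anti-PD1 group for 7 of 7 class II genes, and vehicle 5 was the lowest of the vehicle group for 7 of 7. Cd74 differed by -0.79 ± 0.57 and H2-Ab1 by -0.73 ± 0.56 with all tumors, and without the pair the values were 0.11 ± 0.59 and 0.19 ± 0.59. The median of the list was -0.85 with all tumors and 0.03 without the pair, with 0 genes at an unadjusted p under 0.05 in both. Leaving out 1 more tumor moved the second median from -0.41 (without anti-PD1 1) to 0.27 (without anti-PD1 4).

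Macrophage genes also varied within both groups. The summed level of 16 macrophage genes was 1241, 379, 808, 330 and 264 CPM with anti-PD1, against 1649, 615, 649, 605 and 575 CPM with vehicle. Anti-PD1 1 was the highest anti-PD1 tumor for 14 of 16 genes and vehicle 1 the highest vehicle tumor for 16 of 16. At an unadjusted p under 0.05 there were 2 lower genes with all tumors, Cd14, a receptor for bacterial products, at -1.07 ± 0.37 and Marco, a scavenger receptor, at -2.35 ± 0.85, and 0 without vehicle 1 and 2, where they were at -0.41 ± 0.35 and -0.36 ± 0.86. Over all genes, 5.88% were lower at that level with all tumors and 1.62% without the pair. The median of the macrophage genes was -0.54 with all tumors and 0.03 without the pair. Leaving out 1 more tumor moved the second median from -0.33 (without anti-PD1 1) to 0.20 (without anti-PD1 5). Among 3 tested genes of B and plasma cells, Cd79a, part of the B cell receptor, differed by 0.85 ± 0.33 with all tumors (unadjusted p = 0.019) and 0.79 ± 0.43 without the pair (unadjusted p = 0.080). Jchain, which joins antibody molecules, had 11.1, 1.57, 8.56, 7.01 and 48.3 CPM with anti-PD1 and 13.9, 5.10, 5.31, 1.07 and 1.51 CPM with vehicle. Anti-PD1 5 was the highest, and the difference was 1.41 ± 0.76 with all tumors and 2.58 ± 0.96 without the pair (unadjusted p = 0.016, adjusted p = 1 in edgeR).

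**Figure D4:**
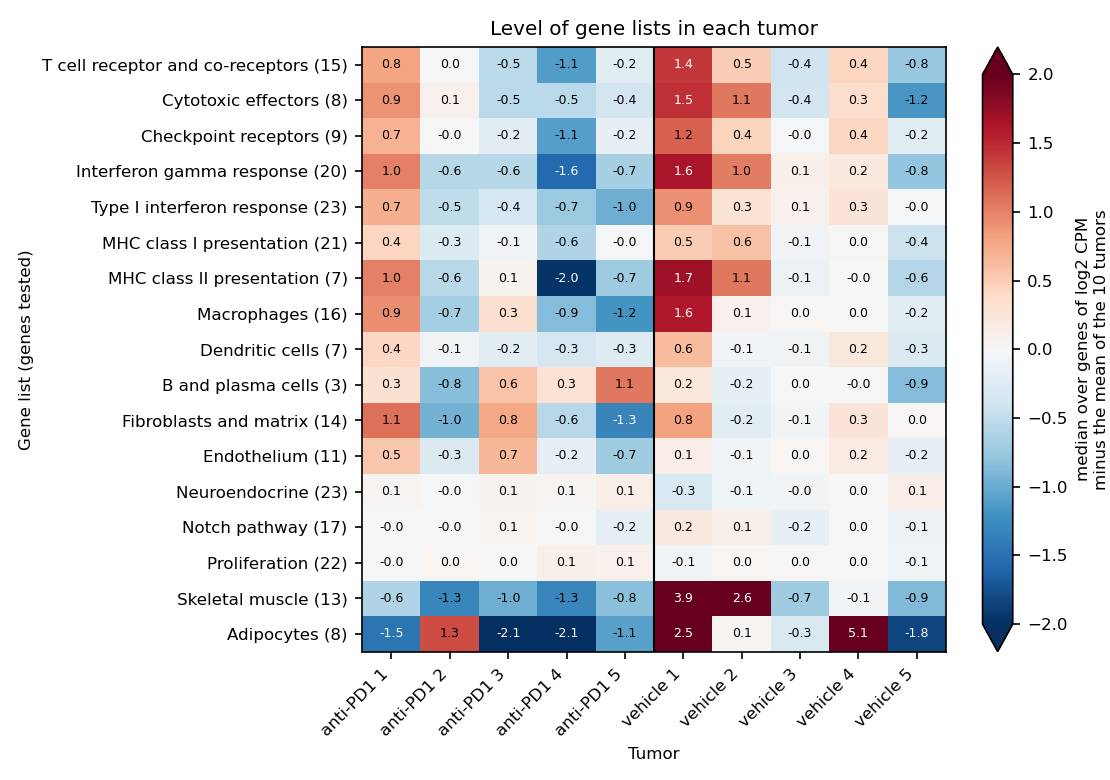
Level of 17 gene lists in the 5 anti-PD1 tumors (left of the line) and the 5 vehicle tumors (right), as the median over the tested genes of log2 CPM minus the mean of the 10 tumors. Red is above and blue below that mean, and colors stop at 2 in either direction. Most immune and interferon lists are high in anti-PD1 1 and vehicle 1 and low in anti-PD1 4, neuroendocrine and proliferation lists are nearly flat, and fat cell genes are highest in vehicle 4.

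The other immune lists held few tested genes. Regulatory T cell genes had a median log2 difference of -0.26 with all tumors and -0.21 without the pair (4 genes), natural killer cell genes -0.62 and -0.20 (2 genes), monocyte and neutrophil genes -0.66 and -0.32 (5 genes) and dendritic cell genes -0.32 and -0.01 (7 genes with all tumors, 8 without the pair). Genes of T cell exhaustion and memory had medians of -0.54 and -0.17 (13 genes), with 2 lower at an unadjusted p under 0.05 with all tumors, Id2 at -1.25 ± 0.39 and Nr4a3 at -0.95 ± 0.44, and 0 without the pair, where they were at 0.06 ± 0.16 and -0.27 ± 0.50. With all tumors, 5.88% of all genes were lower at that level. Id2, a regulator of differentiation, was high in vehicle 1 and 2 at 246 and 197 CPM, against 43.3 to 63.2 CPM in the anti-PD1 tumors. None of 7 mast cell genes was high enough to test. With 1 more tumor left out besides the pair, the dendritic cell median lay between -0.40 (without anti-PD1 1) and 0.10 (without vehicle 4).

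Stromal genes also varied within groups. The summed level of 14 genes of fibroblasts and matrix was 2928, 534, 1940, 703 and 405 CPM with anti-PD1, against 1842, 873, 1036, 1231 and 1051 CPM with vehicle, and anti-PD1 1 was the highest of its group for 14 of 14 genes. Their median log2 difference was -0.04 with all tumors and 0.19 without vehicle 1 and 2, with 0 genes at an unadjusted p under 0.05 in both. Among 11 endothelial genes the median was 0.03 with all tumors and 0.10 without the pair. Tek, a receptor of blood vessels, was lower at that level without the pair, beside 1.62% of all genes. It was at -0.83 ± 0.37 without the pair and at -0.64 ± 0.32 with all tumors.

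Genes of neighboring tissue moved with single vehicle libraries. The summed level of 16 skeletal muscle genes was 11.7 to 21.7 CPM in the anti-PD1 tumors, 223 CPM in vehicle 1, 100.4 CPM in vehicle 2 and 13.4 to 35.4 CPM in the other vehicle tumors. The muscle kinase gene Ckm had 0 counts in all anti-PD1 tumors, 12.6 and 3.27 CPM in vehicle 1 and 2 and at most 0.31 CPM in vehicle 3, 4 and 5. Of 13 muscle genes tested, 0 were higher and 1 was lower at an unadjusted p under 0.05 with all tumors, and 0 either way without the pair. With all tumors 5.88% of all genes were lower at that level. The muscle genes had a median log2 difference of -4.14 with all tumors and -0.49 without the pair. For 4 of them all anti-PD1 tumors were at 0, and with these set against a floor of 3 counts over the group the medians were -4.00 and -0.40, the second without 2 genes that were at or under the floor in both groups. The 3 genes of lowest adjusted p in DESeq2 with all tumors were the muscle genes Myl1, Ckm and Mybpc1. The summed level of 9 fat cell genes was 26.6 to 87.0 CPM in the anti-PD1 tumors, 789.9 CPM in vehicle 4 and 21.7 to 166 CPM in the other vehicle tumors. Adipoq, the gene of the fat cell hormone adiponectin, had 0.48, 2.80, 0, 0 and 0.42 CPM with anti-PD1 and 5.48, 0.61, 0.71, 48.1 and 0.14 CPM with vehicle. Fat cell genes were the list with the largest share at an unadjusted p under 0.05. Lower at that level were 7 of 8 with all tumors and 8 of 9 without vehicle 1 and 2. Over all genes the shares were 5.88% and 1.62%. The medians of the fat cell genes were -3.66 and -4.02. Without vehicle 4 as well, their median was 1.10. The part of these tissues in the results above was not tested.

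Neuroendocrine genes of the tumor cells mostly differed little. Of 23 neuroendocrine genes, 2 were higher and 1 was lower at an unadjusted p under 0.05 with all tumors. Over all genes 3.96% were higher and 5.88% lower at that level. The median of the list was 0.07 with all tumors and -0.0086 without vehicle 1 and 2. In the second fit 1 gene of the list was higher and 0 were lower, beside 1.32% and 1.62% of all genes. Nkx2-1, a factor of lung identity, was one of the higher genes, with 244, 224, 273, 254 and 289 CPM with anti-PD1, against 188, 219, 210, 234 and 219 CPM with vehicle. It differed by 0.26 ± 0.08 with all tumors and 0.20 ± 0.10 without vehicle 1 and 2. The lower one was Sez6, a surface protein of neurons, which had 33.8 to 41.6 CPM with anti-PD1, against 126 and 172 CPM in vehicle 1 and 2 and 33.1 to 47.0 CPM in the other vehicle tumors. Its value was -1.17 ± 0.38 with all tumors and -0.06 ± 0.23 without the pair. Chga differed by 0.06 ± 0.19 with all tumors and -0.01 ± 0.22 without the pair.

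Proliferation genes had small differences as well. Mki67, the marker of cycling cells, had 490, 711, 449.9, 513 and 550 CPM with anti-PD1, against 560, 609, 562, 573 and 432 CPM with vehicle, and it differed by -0.01 ± 0.11 with all tumors and 0.05 ± 0.13 without vehicle 1 and 2. Of 22 proliferation genes, 2 were higher at an unadjusted p under 0.05 with all tumors, Ccna2 at 0.16 ± 0.05 and Tyms at 0.17 ± 0.06, and 1 without the pair, Tyms at 0.18 ± 0.07. At that level 3.96% of all genes were higher with all tumors and 1.32% without the pair. The median of the proliferation genes was 0.06 with all tumors and 0.05 without the pair. The second median stayed between 0.04 and 0.09 when 1 more tumor was left out.

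Kdm1a (chr4:136550540-136602723, minus strand), the gene of LSD1, was not targeted in either group. It had 568, 574, 576, 581 and 568 CPM in the anti-PD1 tumors, against 446, 508, 507, 544 and 535 CPM in the vehicle tumors, and averaged 421 CPM with BOM plus anti-PD1 and 434 CPM with BOM alone. All anti-PD1 tumors lay above all vehicle tumors, by 0.17 ± 0.07 with all tumors (unadjusted p = 0.019, adjusted p = 0.40 in edgeR) and by 0.11 ± 0.07 without vehicle 1 and 2 (adjusted p = 1). How many of all genes separated the groups in this way is not given here. Hes1, a target of Notch, had 13.7, 11.5, 15.9, 13.1 and 15.5 CPM with anti-PD1, against 28.7, 23.9, 13.1, 12.4 and 10.2 CPM with vehicle. It differed by -0.38 ± 0.24 with all tumors and 0.22 ± 0.18 without the pair. Notch2 differed by -1.13 ± 0.31 and -0.33 ± 0.20, and Rest, a repressor of neuronal genes, by -1.68 ± 0.45 and -0.15 ± 0.21. Median log2 differences with all tumors and without the pair were -0.10 and 0.01 for the Notch pathway (17 genes), -0.29 and 0.12 for non-neuroendocrine and mesenchymal genes (15 genes), 0.03 and 0.06 for the LSD1 complex (12 genes), 0.17 and 0.13 for hypoxia and glycolysis (16 genes) and -0.12 and -0.06 for stress and immediate early genes (13 genes). The sign of the first 2 medians thus changed when vehicle 1 and 2 were left out. At an unadjusted p under 0.05 with all tumors, 3 LSD1 complex genes were higher, beside 3.96% of all genes. At that level 3 Notch pathway and 3 non-neuroendocrine and mesenchymal genes were lower, beside 5.88%, and 1 Notch pathway gene was higher. Without the pair 0 LSD1 complex and 0 non-neuroendocrine and mesenchymal genes were at that level. In the same fit 1 Notch pathway gene was higher, beside 1.32% of all genes.

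**Figure D5:**
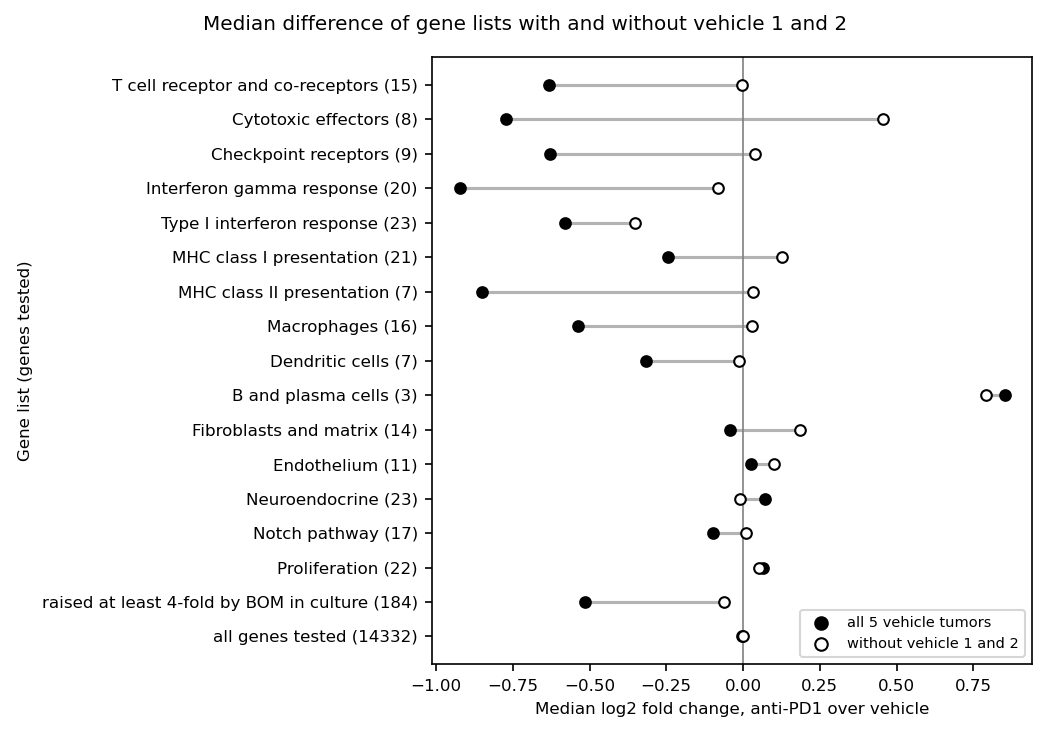
Median log2 difference, anti-PD1 over vehicle, of 15 gene lists, of the 184 genes that BOM raised in culture and of all genes tested. Filled points use all tumors and open points leave out vehicle 1 and 2. Immune and interferon lists lie between -0.92 and -0.24 with all tumors, apart from the 3 genes of B and plasma cells at 0.85. Without the pair most are close to 0, with cytotoxic genes at 0.45 and the type I interferon response at -0.35. With 1 more tumor left out (not shown), medians ranged from -0.33 to 0.20 for macrophages and -0.41 to 0.27 for MHC class II.

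The anti-PD1 difference in the presence of BOM was set against that in its absence, with no tumor in common. edgeR called 0 of 14332 genes (0%) with all tumors, with 1258 at an unadjusted p under 0.05, and 0 of 14450 (0%) without vehicle 1 and 2, with 565. With all tumors DESeq2 called 6 genes, which included the muscle genes Ckm and Myl1 and the interferon gene Usp18, and limma voom called 0. For H2-K1 the difference of the differences was 0.99 ± 0.35 with all tumors (adjusted p = 0.47 in edgeR) and 0.68 ± 0.32 without the pair (adjusted p = 1). For Cd8a it was 2.99 ± 1.05 with all tumors and 0.91 ± 1.03 without the pair, and for Usp18 it was 2.76 ± 0.63 and 1.77 ± 0.52. None of these 3 genes passed the adjusted threshold in edgeR, and Usp18 passed in DESeq2 with all tumors (adjusted p = 0.040).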

How the data were processed

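Poly(A) RNA of flank tumors was sequenced, and the authors deposited raw read counts for 29745 protein-coding and lncRNA genes. Per the submitters' processing notes, STAR 2.7, FastQC 0.11.9, Subread 2.0 with featureCounts, and build mm10 were used; their settings are not given in the sources used here. Because the library kit, per the labels, does not keep strand, overlapping antisense genes are uncertain. Genes passing filterByExpr were scaled by TMM and compared by edgeR 4.0.16 (R 4.3.3, quasi-likelihood F-test), with all 18 tumors in 4 groups (14 residual degrees of freedom) or without vehicle 1 and 2 (12). P-values were adjusted by Benjamini-Hochberg across the genes tested, with calls at an adjusted p under 0.05, and each SE was derived from its p. CPM used TMM library sizes and log2 CPM a prior count of 2. Levels are not per length, so they were compared within a gene or list only.

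The members and the 31 gene lists were chosen with earlier results of these data known. Genes were named by lowest p (8 per direction above a floor of 2 in mean log2 CPM, and 2 per list) or from a fixed set, and not every such gene is printed. Gbp5, Insm1, Ckm, Myl1, Adipoq, Cd8b1, Cd79a and Gm10800 were picked later, with their values in view. DESeq2 1.42.0, voom of limma 3.58.1, other scalings, filters and sample sets, and leaving out each tumor served as alternatives. The code was tested on simulated data. No library was a copy of another (lowest chi-square per degree of freedom 3.54). The floor of 3 counts covers counting error only. T cell receptor constant chains, immunoglobulin constant chains, Cxcl11, Mx1 and Mx2 were not analysed here, and some genes are not reported here.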

Additional observations from a re-analysis of the deposited data

Results flagged for a closer look

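By a gap test (critical value 0.71), single tumors stood apart from the other 4 of their group in 7 of the 146 gene and group sets examined. In independent sets chance gives 1 in 20. The sets share the same tumors, and many named genes were picked by low p in them. That rate therefore cannot be used to judge the 7. Such a test can also miss 2 tumors that are high together, as vehicle 1 and 2 were for Notch1. Notch1 was at 1.83 CPM in anti-PD1 5, against 4.38 CPM or more in the others. Anp32b was at 294 CPM in anti-PD1 2, with the next anti-PD1 tumor at 353 CPM, and Kcnk5 at 0.48 CPM in anti-PD1 1, with the next at 1.22 CPM. In the vehicle group, tumor 5 had 432 CPM of Mki67 (next 560 CPM), 108 CPM of Thoc3 (next 98.0 CPM) and 88.0 CPM of Arhgap11a (next 109 CPM). Cbx8 was at 79.6 CPM in vehicle 4, with the next vehicle tumor at 20.6 CPM.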

How the results depend on the processing

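The count of 0 genes called with all tumors was also 0 with limma voom, RLE size factors, library size alone, no filter, a filter at 1 CPM in 4 tumors, only both groups in the fit, vehicle 1 thinned and Gm26917 and Gm42418 left out, while DESeq2 called 86. Leaving out 1 tumor at a time gave 0 to 2 calls. Without vehicle 1 and 2, in alternatives chosen after seeing the data, DESeq2 called 1 gene and the fit with no filter 10, of which 8 were predicted genes, and leaving out 1 more tumor gave 0 to 2, both Gm10800 and Gm10801. For the difference by BOM, DESeq2 called 6 and leaving out 1 tumor 0. A replicate block called 0 genes in each of these comparisons. Deviations of tumors that share a number correlated by 0.51, 0.10, -0.16, -0.12 and 0.23, so the numbers were not taken as pairs.

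Without vehicle 1 and 2 the sign reversed, on the log2 scale, for Pdcd1 (0.67), Cd274 (0.13), Cd3e (0.36), Cd8a (0.79), Gzmb (0.47), Prf1 (0.44), Cxcl9 (0.10), H2-K1 (0.10), B2m (0.00759), Tap1 (0.17), H2-Ab1 (0.19), Cd74 (0.11), Chga (-0.00857), Notch1 (0.0756), Hes1 (0.22), Mki67 (0.0472), Spata13 (0.50), Aldoc (0.0727) and Id2 (0.0573). The cause was not tested. When each tumor was left out in turn, the signs of some genes reversed: Cd3e lay between -1.24 and 0.22, Cxcl9 between -1.09 and 0.10, the Chga log2 fold change between -0.00306 and 0.16, Mki67 between -0.13 and 0.0492 and Spata13 between -0.19 and 0.13. The sign of Cd3e and Cxcl9 reversed without vehicle 1. Depth limits the scarce immune genes, where 3 counts are 0.415 to 0.528 CPM in an anti-PD1 library.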
